A study of Mus musculus with 2 samples.

Results

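The genes described here encode the nuclear pore complex and the carriers that move proteins and RNA through it, measured in BCR-ABL-expressing Ba/F3 cells given imatinib. They were chosen by symbol alone: names beginning with Nup, Ipo, Xpo, Kpna, Kpnb or Tnpo followed by a number, Xpot, and 10 genes named outright, of which 9 had a probe set (Tpr was not analysed here). This gave 52 of 19935 genes, from 63 probe sets that name a single gene. A gene with more than 1 probe set was represented by that with the higher mean value.

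The Ba/F3 line, of mouse pro-B-like cells, needs interleukin-3 (IL-3) unless an oncogene such as BCR-ABL replaces that signal, and imatinib blocks the ABL kinase. Both groups constitutively expressed BCR-ABL and received 5 µM imatinib for 6 h in RPMI with 10% serum. They differed in whether IL-3 was supplied, and the submitters describe the cells with IL-3 as resistant and those without as dying. Each group is 1 array of cells titled as live, so there is no replicate, no test and no p-value between the conditions, and precision is limited by the number of arrays. The title and source name of the first array give IL-3 but its description says the opposite; the source name of the second can be taken to mean that it had no imatinib either. The titles and treatment protocol were followed here, and a swap of the arrays would turn every sign below.

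The nuclear pore is a ring-shaped channel built of nucleoporins. A scaffold of Y-shaped complexes and an inner ring holds a central channel whose disordered repeats bar large molecules unless a carrier takes them through. Importins release their cargo in the nucleus when the GTPase Ran is in its GTP form, and exportins bind cargo with Ran-GTP and let it go in the cytoplasm, where GTP is hydrolysed. Growing and dividing cells use this traffic heavily, since ribosomal proteins, histones and pre-ribosomes all cross the pore.

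Most of these genes stood higher in the array with IL-3, by moderate amounts. Of the 52 genes, 48 had a difference above 0 as deposited (46 to 49 under other processing), against 59.8% of all genes. In all, 20 were at least 1.5-fold higher (log2 difference of 0.585 or more), against 3.52% of all genes. Only 3, Ranbp1, Nup43 and Nup205, reached 2-fold, against 0.441% of all genes. None was at least 1.5-fold lower, against 2.71% of all genes. The median log2 difference, with IL-3 minus without, was 0.44 over these genes (quartiles 0.28 and 0.68) and 0.04 over all genes. The differences ran from -0.51 for Kpna4 to 1.13 for Ranbp1, and 25 of the 52 lay in the top 5% of all genes.

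The values are log values, taken as log2, each set against its probe set's own baseline, which the sources do not give, so they carry no expression level. A positive value lies above that baseline. Relative to it, 45 of the 52 genes were above 0 in both arrays, against 34.3% of all genes, and their median value was 0.78 with IL-3 and 0.29 without. The usual order was therefore IL-3 array highest, the array without IL-3 lower, and the baseline lowest. By the mean of both values, 42 of the 52 genes fell in the highest 25% of all genes, a place that a high IL-3 value itself helps to reach. In that top 25%, 12.8% of all genes were at least 1.5-fold higher and 61% were above 0, with a median of 0.11. The 42 genes there included 19 at least 1.5-fold higher and 41 above 0, with a median of 0.55.

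The only measure of error within the arrays comes from 998 genes with more than 1 probe set, whose differences varied between probe sets of a gene with a pooled SD of 0.14. It covers neither the culture nor the array, and it also holds any true difference between what the probe sets of a gene read. It is therefore a rough yardstick and cannot stand for a replicate error. Of the 52 genes, 38 were above 0 by at least 2 such SDs (0.29), against 12.3% of all genes, and 1 gene, Kpna4, was below 0 by as much, against 8.83% of all genes. The differences of 6 genes were smaller than 1 SD. Bulk RNA cannot tell apart more RNA per cell from more cells of a kind that makes it.

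**Figure D1:**
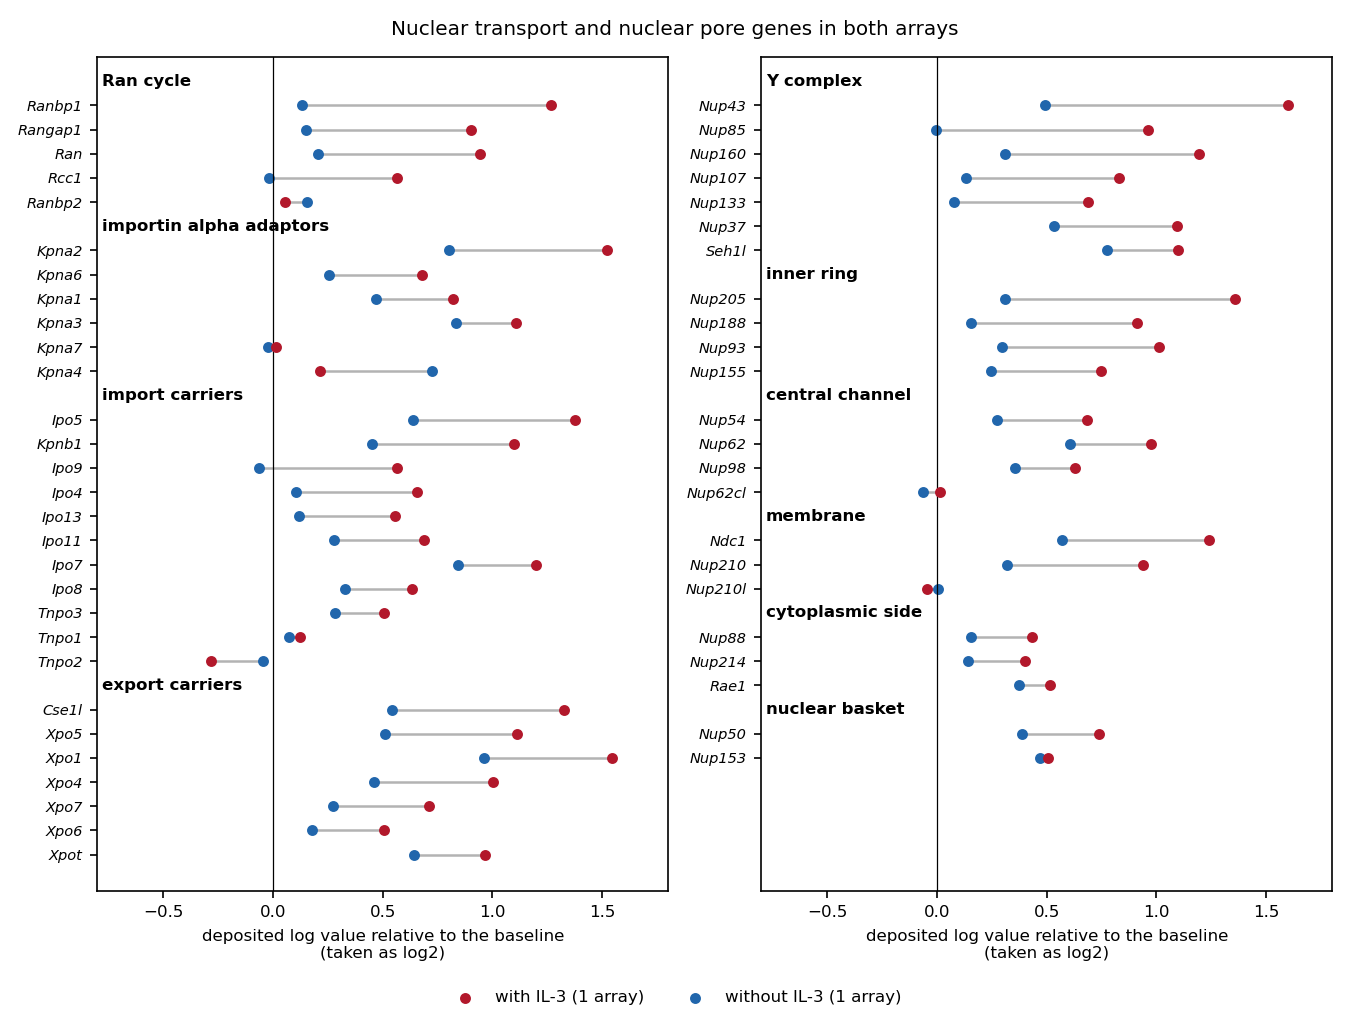
Deposited log values (x axis, relative to an unknown baseline) of the 52 genes by role, with 1 array with IL-3 (red) and 1 without (blue) joined by a grey line. On this deposited scale the red point lies to the right for 48 genes, and to the left for Kpna4, Tnpo2, Ranbp2 and Nup210l.

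The plot of both arrays by gene shows how long the gaps are for the Ran cycle and the scaffold of the pore, and how short they are for the cytoplasmic side and nuclear basket. The blue points lie between -0.07 and 0.96, and the red points between -0.28 and 1.60.

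The Ran cycle held the gene with the widest gap. Ranbp1, a cytoplasmic cofactor that frees Ran-GTP from carriers so that its GTP can be hydrolysed, read 1.27 with IL-3 and 0.13 without, which is 2.20-fold higher and rank 43 of 19935 genes. Ran itself, the GTPase that gives transport its direction, read 0.95 and 0.20, or 1.67-fold higher. Rangap1, the activating protein that triggers GTP hydrolysis, read 0.90 and 0.15 and was 1.68-fold higher. Each of these 3 genes was past 1.5-fold. Rcc1, the chromatin-bound factor that reloads Ran with GTP, read 0.57 with IL-3 and -0.02 without; its difference of 0.58 lay just outside the 1.5-fold line, whereas Xpo1 lay just inside it at 0.59. Ranbp2, a very large nucleoporin of the cytoplasmic filaments that binds Ran and SUMO-modified Rangap1, went the other way, with 0.05 against 0.15, a difference of -0.10 that is smaller than the probe set SD. Ranbp3 and Rangrf, which the symbol rule leaves out and which are listed below with other transport factors, differed by 0.30 and -0.32.

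Promoter sequence is shown for Ran and Ranbp1, for the pore genes Nup188 and Nup205, which had among the wider gaps, and for Kpna4, which went the other way. Each line gives the 250 bases before the RefSeq start site on build GRCm38.p6, 5′ to 3′ on the gene's own strand. Capitals mark the E-box CACGTG, the hexamer bound by MYC and MAX among other factors, and the GC box GGGCGG or its reverse complement CCGCCC, bound by SP1-type factors. The stretches are chr5:129019906-129020155 on the plus strand for Ran, chr16:18248695-18248944 on the minus strand for Ranbp1, chr2:30286166-30286415 on the plus strand for Nup188, chr6:35177366-35177615 on the plus strand for Nup205 and chr3:69127093-69127342 on the minus strand for Kpna4.
Ran: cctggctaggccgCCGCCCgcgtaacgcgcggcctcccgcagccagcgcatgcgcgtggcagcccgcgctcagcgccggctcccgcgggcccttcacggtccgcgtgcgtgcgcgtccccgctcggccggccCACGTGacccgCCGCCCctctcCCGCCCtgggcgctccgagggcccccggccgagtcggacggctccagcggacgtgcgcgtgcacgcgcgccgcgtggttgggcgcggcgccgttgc
Ranbp1: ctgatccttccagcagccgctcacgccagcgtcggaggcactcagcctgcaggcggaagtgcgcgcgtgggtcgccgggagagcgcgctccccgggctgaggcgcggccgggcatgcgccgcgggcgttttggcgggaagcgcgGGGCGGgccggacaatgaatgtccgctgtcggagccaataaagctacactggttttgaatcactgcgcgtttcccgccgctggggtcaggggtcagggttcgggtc
Nup188: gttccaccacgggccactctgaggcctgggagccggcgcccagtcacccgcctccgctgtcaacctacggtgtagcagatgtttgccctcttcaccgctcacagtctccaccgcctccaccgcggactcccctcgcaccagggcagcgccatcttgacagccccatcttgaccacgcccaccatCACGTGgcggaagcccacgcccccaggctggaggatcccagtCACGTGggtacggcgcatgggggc
Nup205: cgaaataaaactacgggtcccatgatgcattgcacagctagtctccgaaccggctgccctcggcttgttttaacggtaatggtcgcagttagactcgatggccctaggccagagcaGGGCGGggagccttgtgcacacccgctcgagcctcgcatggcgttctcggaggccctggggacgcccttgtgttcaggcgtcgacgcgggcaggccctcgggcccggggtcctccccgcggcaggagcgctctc
Kpna4: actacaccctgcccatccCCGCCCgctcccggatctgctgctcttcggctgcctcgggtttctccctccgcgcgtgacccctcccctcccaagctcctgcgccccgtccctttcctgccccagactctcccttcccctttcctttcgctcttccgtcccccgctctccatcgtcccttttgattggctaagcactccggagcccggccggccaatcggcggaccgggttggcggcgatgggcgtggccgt

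In these stretches Ran held 1 E-box, which starts 118 bases before the start site, and 3 GC boxes. Nup188 held 2 E-boxes, at 66 and 24 bases before the start, and no whole GC box. A GC box that begins 4 bases before its start is cut by the end of the stretch. Ranbp1, Nup205 and Kpna4 each held 1 GC box and no E-box. These counts hold only for the bases before the start site. In the longer windows described next, which run past the start, Ran held 4 GC boxes and Ranbp1 held 3. Nup188, Nup205 and Kpna4 held 1 each in those windows. Whether these matches bear on the differences of the 5 genes was not tested.

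Across the set, RefSeq windows of 300 bases (250 before to 50 after the start) were at hand for 42 of the 52 genes, 49 windows in all. Genes without a window included Nup43, Nup85 and Cse1l, with wide gaps of 1.11, 0.96 and 0.78. They also included Seh1l at 0.32 and Nup210l at -0.05. The E-box was found in 9 windows (18.4%), against 7.15% of all 32851 windows. The genes with an E-box were Ran, Ranbp2, Nup188, Nup93, Nup54, Ipo4, Ipo7, Tnpo2 and Xpot. Their differences ran from -0.24 to 0.76 with a median of 0.41, whereas the 33 genes with a window but no E-box ran from -0.51 to 1.13 with a median of 0.50. The genes with the hexamer thus had the lower median of both. Other motifs, searched on both strands, were the NRF1 site in 16.3% of the windows against 4.60% of all, the GC box in 67.3% against 35.7%, the CCAAT box in 49.0% against 37.4%, and the ETS core CCGGAAG in 16.3% against 8.86%. Genes with the NRF1 site had a median difference of 0.60 and those without it 0.44. For the GC box these medians were 0.59 and 0.36, for the CCAAT box 0.37 and 0.58, and for the ETS core 0.50 and 0.44. Whether any motif bears on the differences was not tested. Each motif was counted on its own, so matches of different motifs may overlap. The windows of these genes were richer in G and C, at a median of 64% against 52.7%, and held a median of 28 CpG pairs against 7. The part of this base composition in the motif shares was not tested.

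Among the import carriers, which belong to the importin beta family, 10 of 11 genes were above 0 and 3 were at least 1.5-fold higher, with a median difference of 0.41. Ipo5, which carries ribosomal proteins and histones, read 1.38 with IL-3 and 0.64 without, 1.67-fold higher. Kpnb1, importin beta 1, the main carrier of the classical import route, read 1.10 against 0.45 and was 1.56-fold higher. Ipo9, a carrier of histones H2A and H2B, read 0.57 against -0.06 and was 1.55-fold higher. These 3 genes had the widest gaps of the group. Ipo4, Ipo13, Ipo11, Ipo7 and Ipo8 differed by 0.55, 0.44, 0.41, 0.36 and 0.31.

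The transportins lay at the low end of the import carriers. Tnpo3, which imports the SR splicing factors, differed by 0.22. Tnpo1, the carrier of hnRNP proteins with PY-type signals, differed by 0.05, within the probe set SD. Its close relative Tnpo2 read -0.28 with IL-3 and -0.04 without, so it was the carrier of this group below 0, with a difference of -0.24, 1.18-fold lower.

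The importin alpha adaptors, which recognise the classical localisation signal and ride on importin beta, had differences of both signs. Kpna2, the importin alpha of proliferating cells, read 1.52 with IL-3 and 0.80 without, 1.65-fold higher. Its other 2 probe sets differed by 0.68 and 0.73, close to the 0.72 of the one used. Kpna4, an adaptor known for importing NF-kB, read 0.21 with IL-3 and 0.72 without, 1.42-fold lower, which placed it 702nd from the lowest of all genes. Kpna6, Kpna1 and Kpna3 lay between them at 0.43, 0.35 and 0.27, and Kpna7, an adaptor of oocytes and early embryos, at 0.04. Kpna3 and Kpna4 are close relatives, and their differences had opposite signs on the deposited scale; with a loess trend subtracted Kpna3 was at -0.03 and Kpna4 at -0.59. The group's median was 0.31, and 5 of its 6 genes were above 0 as deposited.

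All 7 export carriers that the symbol rule picks were above 0, from 0.32 to 0.78, with a median of 0.54. Ranbp17, which the rule leaves out and which is listed below with other transport factors, differed by -0.46. Cse1l, which returns importin alpha to the cytoplasm, read 1.33 with IL-3 and 0.54 without, 1.72-fold higher. Xpo5, the exporter of microRNA precursors, read 1.11 against 0.51, 1.52-fold higher. Xpo1, the main exporter of proteins with leucine-rich signals and of pre-ribosomal subunits, read 1.55 and 0.96; both values are high relative to the baseline, and the difference was 0.59. Xpot, the tRNA exporter, had the narrowest gap, at 0.96 against 0.64 (1.25-fold higher). Xpo4, Xpo7 and Xpo6 differed by 0.54, 0.44 and 0.33. Cse1l and its cargo Kpna2 thus had similar differences of 0.78 and 0.72 as deposited. With a loess trend subtracted these were 0.50 and 0.33.

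The scaffold of the pore held most of the wide gaps among the nucleoporins. In the Y complex, the outer ring scaffold, all 7 genes that the symbol rule picks were above 0. Of these, 5 were at least 1.5-fold higher, and the median was 0.70. Sec13 and Ahctf1, components of this complex that the rule leaves out, had narrower gaps, at 0.36 and 0.21. Nup43 read 1.60 with IL-3 and 0.49 without, 2.15-fold higher and rank 48 of all genes. Nup85 read 0.96 against -0.004 and was 1.95-fold higher. Nup160 read 1.19 against 0.31, 1.84-fold higher. Nup107 and Nup133, which join to form the stem of the Y, were 1.62-fold and 1.53-fold higher, at 0.83 against 0.13 and 0.69 against 0.08. Nup37 differed by 0.56. Seh1l, which this complex shares with a regulator of mTORC1, had the narrowest gap, at 1.10 against 0.78, a difference of 0.32.

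In the inner ring all 4 measured genes were above 0, from 0.50 to 1.05. Nup205 read 1.36 with IL-3 and 0.31 without, 2.06-fold higher and rank 67 of all genes. Its structural relative Nup188 read 0.91 against 0.16, 1.69-fold higher. Nup93, which links these large scaffold proteins to the channel, read 1.01 against 0.29, 1.64-fold higher. Nup155 had the narrowest gap of the 4, at 0.75 against 0.25, a difference of 0.50. Over the 11 genes that the symbol rule picks from the Y complex and inner ring, the median was 0.72 and 8 were at least 1.5-fold higher.

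Among the chosen genes outside the scaffold the gaps were narrower, with the exception of 2 membrane genes. The 12 other nucleoporins, not counting Ranbp2, which is described with the Ran cycle, had a median of 0.27 (also 0.27 with it) and 2 of them were at least 1.5-fold higher. Both were membrane proteins: Ndc1, which anchors the pore in the nuclear envelope, read 1.24 against 0.57 (1.59-fold higher), and Nup210 read 0.94 against 0.32 (1.54-fold higher). In the central channel, Nup54 read 0.68 with IL-3 and 0.27 without, a difference of 0.41, and Nup62, its partner in the FG-repeat complex, differed by 0.37. Nup98, whose transcript also encodes the Y complex protein Nup96, differed by 0.27. On the cytoplasmic side, Nup88 read 0.43 against 0.16, a difference of 0.28, and its partner Nup214 differed by 0.26. The basket protein Nup50, a cofactor of importin alpha release, read 0.74 against 0.39, a difference of 0.35. Nup153, which holds the basket to the pore, read 0.50 and 0.47, a difference of 0.03. The sign of Nup153 turned to -0.05 after a loess trend was subtracted and to -0.02 after quantile normalization. Outside the scaffold, pore genes that the symbol rule leaves out differed by 0.72 (Aaas), 0.22 (Pom121), 0.20 (Nupl2) and 0.18 (Nupl1). Among the chosen genes, the ranges of the scaffold (0.32 to 1.11) and the other nucleoporins (-0.05 to 0.67, or from -0.10 with Ranbp2) overlapped. With 1 array a group the contrast between them has no test.

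Rae1, an mRNA export factor that binds Nup98, depended on the probe set. The one with the higher mean read 0.52 against 0.37, a difference of 0.15, and the other 0.57 against 0.26, a difference of 0.31. Nup210l, a paralog of Nup210 known from the testis, had 9 probe sets whose differences ran from -0.08 to 0.39. The one chosen read -0.05 with IL-3 and 0.01 without, a difference of -0.05, and the mean of all 9 gave 0.11, so its sign is not settled. Nup62cl, a relative of Nup62, read 0.01 and -0.07. Kpna7, Nup62cl and the chosen probe set of Nup210l lay near the baseline in both arrays.

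**Figure D2:**
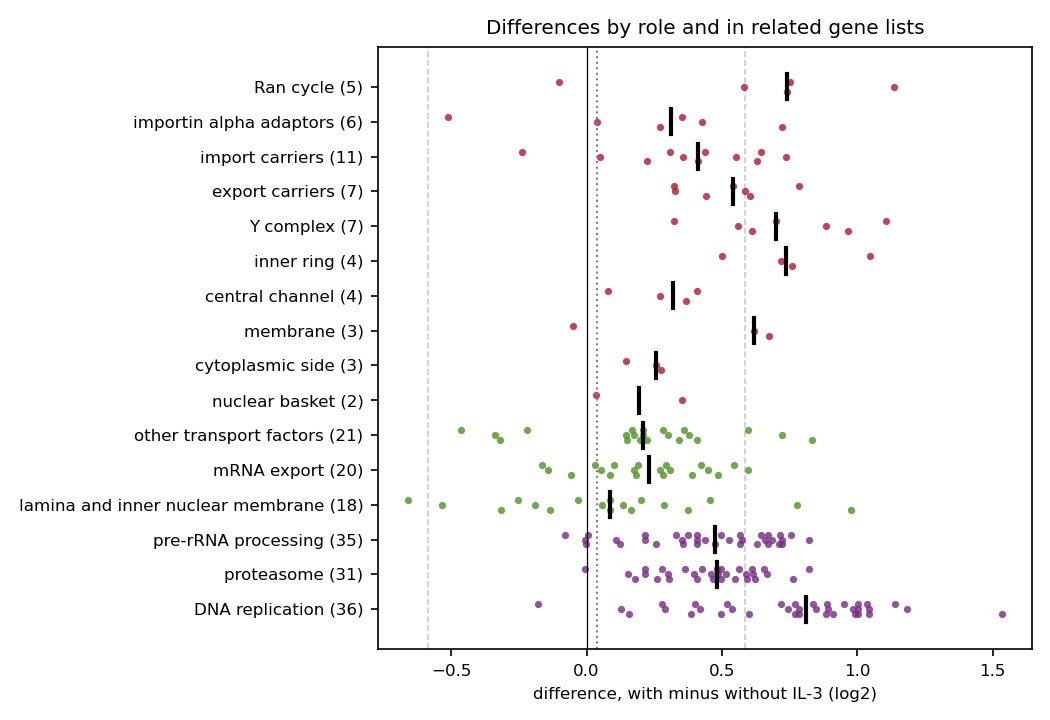
Log2 differences, with IL-3 minus without (x axis), of each gene (points) by role in red, in related transport and envelope lists in green and in comparison lists in purple, with the number of genes in brackets. Black bars are medians, dashed lines 1.5-fold and the dotted line the median of all genes (0.04); the Ran cycle, Y complex and inner ring medians lie between 0.70 and 0.74.

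Genes that the symbol rule leaves out, in 3 related lists, had lower medians. These were 0.21 in other transport and pore factors, 0.23 in mRNA export and 0.09 in the nuclear lamina and inner membrane list. Beside the 59.8% of all genes above 0 and the 3.52% at least 1.5-fold higher, the shares were 81.0% and 14.3% in other transport and pore factors, 85% and 5% in mRNA export, and 61.1% and 11.1% in the nuclear lamina and inner membrane list. The mRNA export list was thus near all genes in its share past 1.5-fold, and the lamina list in its share above 0. Of 21 other transport and pore factors, 17 were above 0, 3 were at least 1.5-fold higher and none 1.5-fold lower. The highest were Hikeshi, the import carrier of HSP70, at 0.83 and the nucleoporin gene Aaas at 0.72, and the lowest were Ranbp17 at -0.46 and Ranbp10 at -0.34. Of 20 mRNA export genes, 17 were above 0 and 1 was at least 1.5-fold higher; the highest were the adaptor Alyref at 0.60 and the export receptor cofactor Nxt1 at 0.55, and the lowest the THO complex genes Thoc1 and Thoc2 at -0.16 and -0.14. In the nuclear lamina and inner membrane list, 11 of 18 genes were above 0, 2 were at least 1.5-fold higher and 1 was at least 1.5-fold lower. Banf1, a chromatin-bridging protein of the envelope, and Lmnb1, lamin B1, were highest at 0.98 and 0.78, and Tor1aip2 and Tor1aip1, which activate torsin, were lowest at -0.66 and -0.54.

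Comparison lists of other genes leaned the same way. Pre-rRNA processing genes, which feed pre-ribosomes to the pore, had a median of 0.47, with 32 of 35 above 0 and 12 at least 1.5-fold higher. Proteasome subunits had a median of 0.48, with 30 of 31 above 0 and 9 at least 1.5-fold higher. DNA replication genes had a higher median of 0.81, with 35 of 36 above 0 and 25 at least 1.5-fold higher. The 38.5% of nuclear pore and transport genes past 1.5-fold compares with 34.3%, 29.0% and 69.4% in these lists. Over all genes, 3.52% were at least 1.5-fold higher and 59.8% were above 0. With no replicates these differences between lists have no test.

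**Figure D3:**
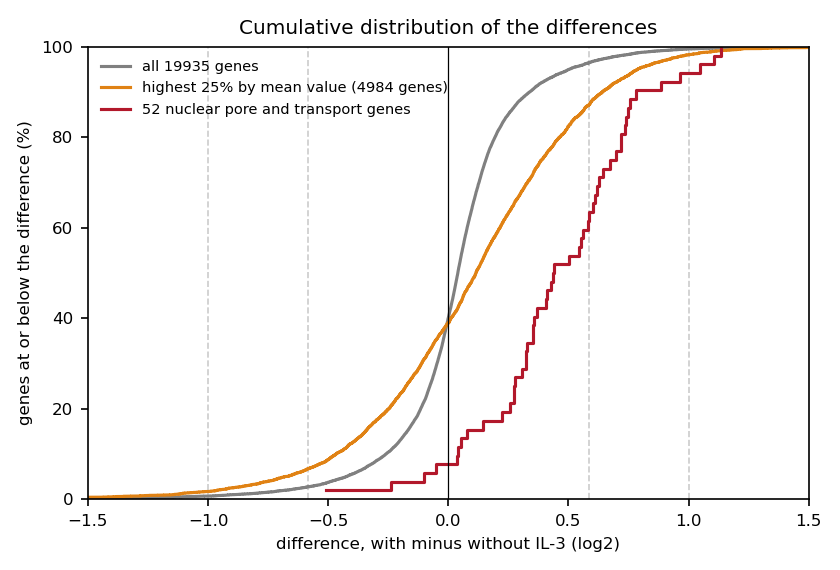
Share of genes (y axis, %) at or below each log2 difference, with IL-3 minus without (x axis), for the 52 nuclear pore and transport genes (red), all 19935 genes (grey) and the 4984 genes in the highest 25% by mean value (orange). Dashed lines mark 1.5-fold and 2-fold; the red curve lies to the right of both others over most of its range and ends at 1.13.

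The cumulative plot sets the whole distribution of these genes beside that of all genes. The red curve has quartiles at 0.28 and 0.68, where all genes have theirs at -0.08 and 0.16, and its lower tail is short and ends at Kpna4. Across the 52 genes the difference had a Pearson r of 0.56 with the mean value, a description across genes, which share the 2 arrays; the mean contains the IL-3 value. Over all genes the correlation with the mean was 0.14.

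Markers of other cell types were set beside these values. The B-lineage markers, the lineage Ba/F3 is assigned to, had a median difference of 0.05 in 11 genes, none past 1.5-fold. Of 10 mast cell and basophil markers, 4 were lower in the IL-3 array by 1.5-fold or more and none higher by as much. Their median values were -0.20 with IL-3 and 0.31 without. Fcer1a, the IgE receptor chain, differed by -2.46, whereas 3 markers were above 0, the highest Tpsb2 at 0.19. Of 11 granulocyte markers, 3 were at least 1.5-fold lower, among them the granule gene Ngp at -2.87, with median values of -0.09 and -0.02. In this list 4 were above 0, the highest S100a9 at 0.38. Of 6 T cell markers, 1 was at least 1.5-fold lower, with medians of -0.10 and -0.21. Among all genes, 2.71% lay that far below 0 and 3.52% that far above it. The values hold no level, so whether a marker was absent cannot be read. The part of any such cells, and of the share of cells in cycle, in the nuclear transport values was not tested.

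**Figure D4:**
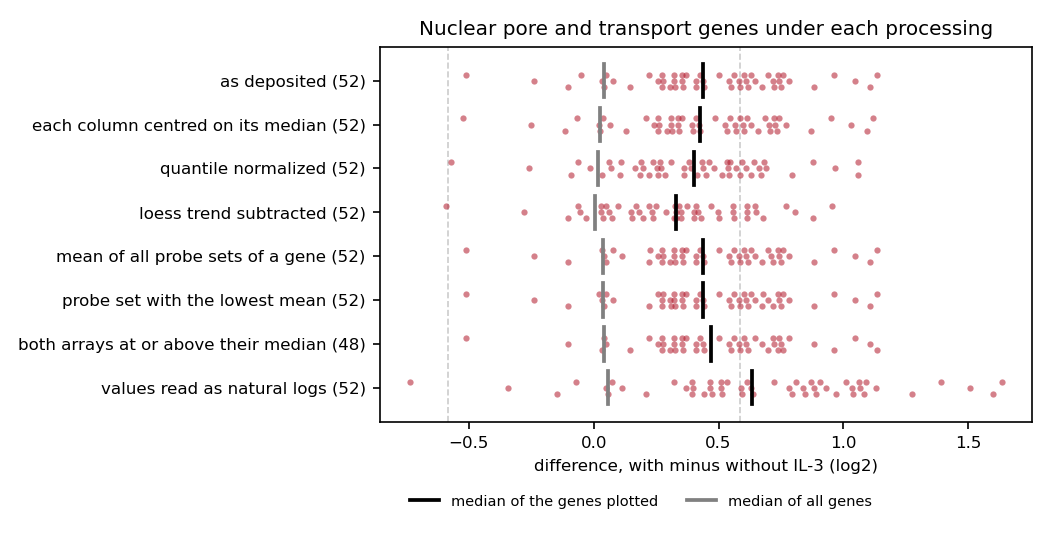
Log2 differences, with IL-3 minus without (x axis), of the nuclear pore and transport genes (red points) under the deposited scale and 7 other ways of processing (rows, number of genes in brackets). Black bars are the medians of these genes, from 0.33 to 0.63, grey bars the medians of all genes, from 0.004 to 0.06, and dashed lines 1.5-fold.

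The scaling changed the size of the gaps more than their direction. The 2-fold count depended on it: 3 genes as deposited, 2 after quantile normalization and 0 once a loess trend of the difference on the mean was subtracted, against 0.145% of all genes under that trend. Under the loess trend Ranbp1, Nup85, Nup205 and Nup43 kept the widest gaps, at 0.96, 0.88, 0.81 and 0.77, and Xpo1 moved from 0.59 to 0.15. The median of the 52 genes then lay 0.32 above that of all genes, compared with 0.40 as deposited.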

How the data were processed

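RNA of 2 samples, 1 per group, was measured on mouse Gene 1.0 ST arrays with 1 colour, per the labels' protocols. The deposited log2 values (log base taken, not stated) were made by the authors relative to a baseline per probe set. In 1760 of 28815 probe sets (6.11%) the 2 values summed to within 1e-05 of 0, as a median baseline shared with further arrays would give. Whether further arrays went into the baseline was not tested, and only these 2 arrays were analysed. Background correction, summarisation and normalization: not given in the sources used here. The column medians were -0.03 with IL-3 and -0.05 without (r 0.77 between columns).

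Probe sets with 1 symbol in the platform annotation (21780) were kept; 1605 had several and 5430 none. All 52 genes matched RefSeq identifiers (GRCm38.p6). Differences are with IL-3 minus without, higher values were taken as more RNA (direction not stated), and genes were counted at 1.5-fold and 2-fold, with no filter and no test, since each group is 1 array. Named with values were the Ran cycle genes, the highest and lowest of each role and every gene past 1.5-fold; other members are given by their difference. From related lists the 2 highest and 2 lowest were named. The members, lists and motifs were chosen with earlier results of these data known. Alternatives were 3 scalings, 2 probe set rules, a filter and natural logs. Scripts used Python 3.11.15, pandas 2.3.3 and statsmodels 0.14.6 (loess span 0.4) and were tested on simulated data.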

Additional observations from a re-analysis of the deposited data

How the results depend on the processing

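The count of genes above 0 stayed between 46 and 49 and the median kept its sign under all 7 alternatives. With a loess trend subtracted, 10 genes were at least 1.5-fold higher instead of 20 (1.76% of all genes instead of 3.52%), 0 instead of 3 were 2-fold higher (0.145% of all genes instead of 0.441%), and 1 instead of 0 (Kpna4) was 1.5-fold lower (3.72% of all genes instead of 2.71%). Read as natural logs, the values gave 30 genes 1.5-fold higher (7.40% of all genes), 13 genes 2-fold higher (2.10%), 1 gene 1.5-fold lower (Kpna4; 5.42%) and a median of 0.63. Quantile normalization left 14 genes 1.5-fold higher (2.41% of all genes). Whether what the loess and quantile scalings remove comes from the arrays or from the cells was not tested. With 1 array a group these cannot be told apart. With both arrays required to reach their median, 48 genes remained, 19 of them 1.5-fold higher (7.40% of all genes so filtered); median centring and the 2 probe set rules left the 1.5-fold counts at 19 or 20 (3.21% to 3.43% of all genes). No paired analysis was possible because each group has 1 array. With 1 array a group no value has a replicate error, and a probe set SD of 0.14 cannot stand for one.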
